A study of Drosophila melanogaster with 4 samples.

Results

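Broad H3K4me3 regions are the enriched regions at least 5000 bases wide in the combined list of the replicate set, on 3 autosomal arms of Drosophila melanogaster. They were chosen by their width in that list from 2L with a start up to position 21011544, from 3L with a start up to 22543557, and from 3R with an end beyond 2000000. These limits leave out the stretch of each arm nearest the centromere. Rows typed as depletion were set aside. The rule found 373 broad regions among 3139 regions in these intervals (11.9%, Wilson 95% interval 10.8% to 13.1%), out of 5539 enriched regions in the whole combined list. Outside the intervals, 275 of 2400 regions were as wide (11.5%, 10.2% to 12.8%). The 2766 regions under 5000 bases in the same intervals are called narrower regions here.

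The values come from chromatin immunoprecipitation and sequencing (ChIP-seq) of Oregon-R embryos of wild type genotype, used whole and staged at 14 to 16 h. There were 2 ChIP samples, made with 1 antibody lot, and 2 Input samples of chromatin that was not immunoprecipitated. Whole embryos mix all tissues, and the lists do not separate cell types. Nothing in the labels ties the replicates to separate embryo collections, so their spread could be purely technical. Each ChIP sample has its own list of enriched regions, with 5518 regions of replicate 1 and 2785 of replicate 2 in these intervals. The lists were called against different Input samples. Each region carries 1 score from the authors, on a scale that is not given, so scores are set side by side as levels and differences. Read depth is unknown.

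Trimethylation of histone H3 at lysine 4 is laid down by Set1/COMPASS-type enzymes and lies mainly over the nucleosomes just downstream of the start sites of transcribed genes. At most genes it forms a compact domain, and in mammalian cells unusually wide domains are known at genes that specify cell identity. Neighbouring promoters can also run together into 1 region, for example where genes are divergently transcribed. No gene annotation of FlyBase release 5, the build of the file headers, was used here, so the positions below are not assigned to genes, exons or introns.

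Because the width in the combined list chose these regions, their widths and scores describe them and test nothing. The replicates' lists come from the same libraries as the combined list and are not independent of that choice either. There is 1 group of ChIP samples, and no test between conditions could be made. Wilson 95% intervals on shares cover counting error only.

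The broad regions were mostly 5 to 8 kb wide, with a thin tail of much wider ones. Their median width was 6095 bases, and the middle 50% ran from 5505 to 7389 bases. In the narrower regions the median was 2609 bases, with the middle 50% from 2113.75 to 3393 bases. Of the 373 broad regions, 62 reached 8 kb, 23 reached 10 kb, 6 reached 12 kb and 2 reached 15 kb. They covered 2.50 Mb, against 7.61 Mb in narrower regions, and so held 24.7% of the bases that the combined list covered in these intervals.

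The 5 regions just inside the minimum were 5008 to 5067 bases wide, with scores from 1.85 to 2.44. The 5 just outside it were 4978 to 4997 bases wide, with scores from 0.83 to 3.68. The group just outside includes the region on 2L from 8040226 to 8045203, whose score of 3.68 was above that of every broad region. Scores on the 2 sides of the minimum overlapped.

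Broad regions had high scores, but within them the score hardly followed the width. The median score was 2.36 in broad regions (middle 50% from 2.03 to 2.64) and 1.28 in narrower regions (0.44 to 2.25), a difference of 1.09. Without replicate 2, in the list of replicate 1 alone, the same difference was 0.32. The lowest 5% of broad regions lay below 1.18, while the median of the narrower regions was only slightly above that value. A score of at least 2 was carried by 283 of the 373 broad regions (75.9%) and by 897 of the 2766 narrower regions (32.4%). A score of at least 3 was uncommon in both, with 20 broad regions (5.36%) and 83 narrower regions (3.00%). Across regions, Spearman's rho of width and score was 0.16 in the broad regions and 0.76 in the narrower ones, and regions of 1 list share its library and calls.

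The combined score rose with width up to about 4 kb and was nearly level beyond. Its median was 0.27 in the 563 regions under 2 kb, 1.19 at 2 to 3 kb (1216 regions) and 2.15 at 3 to 4 kb (675 regions). It was 2.30 at 4 to 5 kb, 2.28 at 5 to 6 kb, 2.40 at 6 to 8 kb, 2.50 at 8 to 10 kb and 2.48 in the 23 regions of at least 10 kb. The highest single score was 3.51 at 5 to 6 kb, 3.37 at 6 to 8 kb, 3.00 at 8 to 10 kb and 3.03 at 10 kb or more, in classes of 174, 137, 39 and 23 regions. In replicate 1 the highest-scoring overlapping region had a median of 1.04 at 3 to 4 kb and 1.14 at 4 to 5 kb. In the broad classes this median was 1.19, 1.36, 1.52 and 1.49, in order of width. Wider regions were more often met by several regions of replicate 1, which raises such a highest value.

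**Figure D1:**
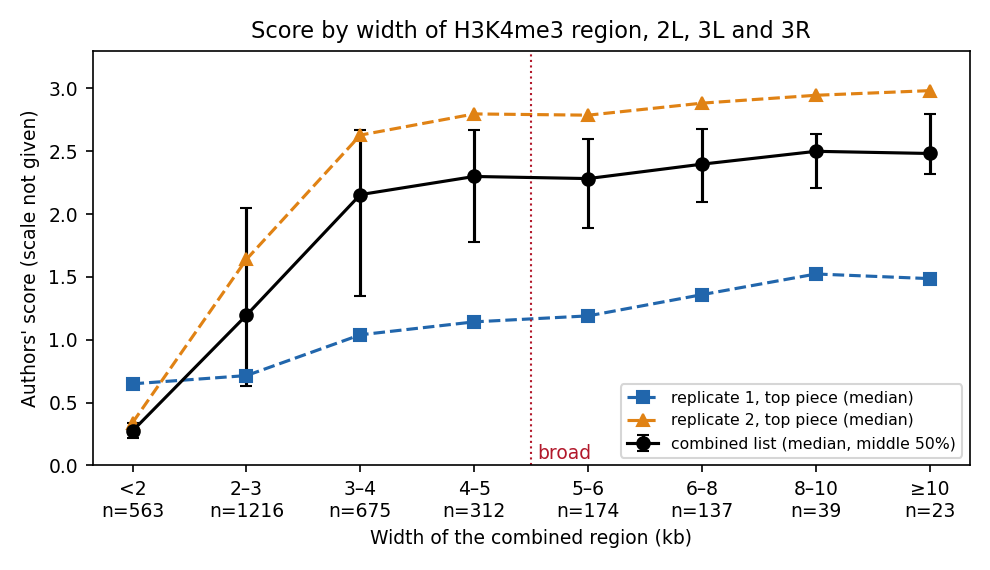
Median score of combined regions by width class (x axis, kb, with the number of regions), with bars for the middle 50%, and the median score of the highest-scoring overlapping region in each replicate. The combined median goes from 0.27 under 2 kb to 2.30 at 4 to 5 kb and then stays between 2.28 and 2.50 in the broad classes, right of the dotted line.

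Nearly every broad region of the combined list was met by both replicates. A combined region is called met by a replicate when a region of that replicate overlaps it by at least 1 base, and each such region is called a piece. Both replicates met 370 of the 373 broad regions (99.2%, 97.7% to 99.7%) and 2063 of the 2766 narrower regions (74.6%, 72.9% to 76.2%), against 77.5% of all combined regions in the intervals. Replicate 1 met 372 broad regions and replicate 2 met 371, against 87.8% and 88.1% of all regions in the intervals. None of the 373 was met by neither replicate (Wilson upper limit 1.02%). Without replicate 2, when the list of replicate 1 set the broad regions, 55.4% of its 581 were met by the other replicate. Wide regions have more room to be met, and this was not separated from their scores.

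The 3 exceptions were all regions of low score. On 3R from 25123219 to 25128528 the combined score was 0.44, the lowest of all broad regions. This region lay wholly inside 1 region of replicate 1 that was 40684 bases wide and scored 1.24, and replicate 2 had nothing there. On 2L from 9989028 to 9994883 the combined score was 0.51, and a region of replicate 1 of 11394 bases covered it with a score of 1.33, again with nothing in replicate 2. On 3R from 9189018 to 9194456 the combined score was 0.78, and replicate 2 alone covered 66.0% of it with a score of 1.39.

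The replicates differed in how they drew the broad regions: replicate 2 usually drew 1 continuous region, and replicate 1 often drew several. The broad regions were chosen by width in the combined list, whose outlines lay closer to those of replicate 2. This contrast is therefore not independent of the choice. In replicate 1, 142 of the 373 broad regions were split into 2 or more pieces (38.1%, 33.3% to 43.1%), as were 57 of the 2766 narrower regions (2.06%), against 6.34% of all combined regions in the intervals. In replicate 2, 13 broad regions were split (3.49%, 2.05% to 5.87%), as were 5 narrower regions (0.18%), against 0.573% of all. By number of pieces in replicate 1, 230 broad regions had 1, 127 had 2, 14 had 3 and 1 had 4. The corresponding numbers in replicate 2 were 358 with 1 piece, 12 with 2 and 1 with 3. Splits in both replicates were found at 6 broad regions (1.61%, against 0.191% of all). A further 136 were split in replicate 1 and had 1 piece in replicate 2, and 7 were the reverse. Having 1 piece does not mean being covered from end to end. A single region covered the whole of 20 broad regions in replicate 1 (5.36%) and of 88 in replicate 2 (23.6%). Both replicates drew a single region at 221 broad regions (59.2%) and at 2002 narrower ones (72.4%), against 70.8% of all. A single region of replicate 1 covered at least 90% of 161 broad regions (43.2%) and of 1359 narrower ones (49.1%), against 48.4% of all. A single region of replicate 2 did so for 313 broad (83.9%) and 2148 narrower regions (77.7%), against 78.4% of all.

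**Figure D2:**
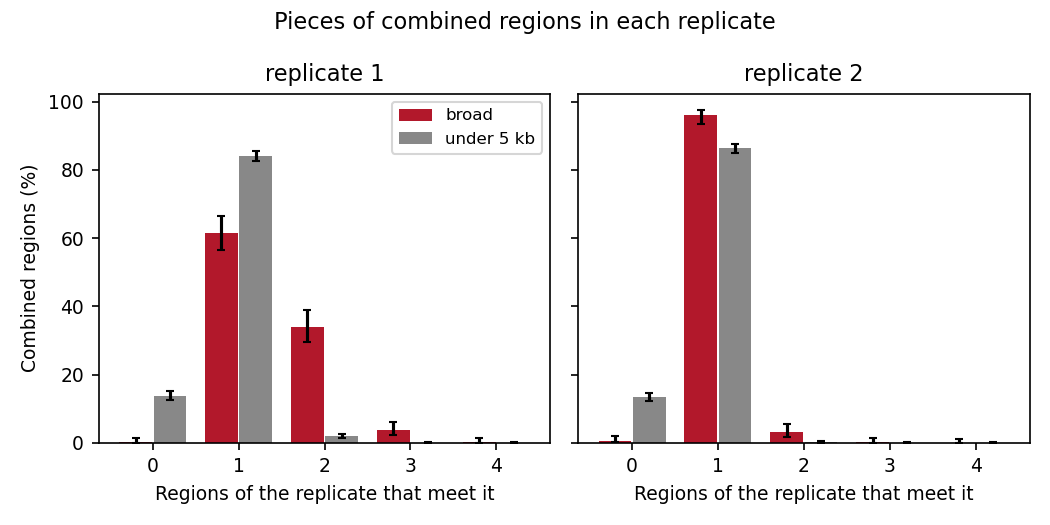
Share of combined regions (y axis, %) met by 0 to 4 regions of a replicate (x axis), for broad regions and regions under 5 kb, with Wilson 95% intervals as bars. In replicate 1, 34.0% of broad regions were met by 2 regions, against 2.02% of those under 5 kb, while in replicate 2 96.0% of broad regions were met by 1.

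A long region offers more room for a break, and the breaks were also denser per base. Broad regions had 0.63 breaks per 10 kb in replicate 1 and narrower regions 0.076. In replicate 2 the same densities were 0.056 in broad and 0.0066 in narrower regions. The density rose with width already below 5 kb, being 0.050 at 2 to 3 kb, 0.064 at 3 to 4 kb and 0.18 at 4 to 5 kb in replicate 1. Above 5 kb it was 0.43 at 5 to 6 kb, 0.66 at 6 to 8 kb, 0.99 at 8 to 10 kb and 0.77 at 10 kb or more. The share of regions split in replicate 1 was 23.0% at 5 to 6 kb, 43.1% at 6 to 8 kb, 69.2% at 8 to 10 kb and 69.6% at 10 kb or more. Since pieces have a least width in each list, short regions had less scope to be split, and how much this adds was not tested.

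The breaks were short. In replicate 1 the 158 inner gaps of broad regions had a median of 331.5 bases and a maximum of 2561 bases, and 142 of them were under 1000 bases (89.9%). All gaps were under 1000 bases in 128 of the 142 split regions (90.1%). Replicate 2 had 14 inner gaps, with a median of 241.5 bases and a maximum of 1157 bases. When pieces under 1000 bases apart were joined, 3.75% of broad regions remained split in replicate 1 and 0.54% in replicate 2. When replicate 1 was reduced to as many regions as replicate 2 had, by score, 23.1% were split in it. When neighbouring combined regions under 1000 bases apart were joined instead, 61.6% of the broad regions were split in replicate 1 and 47.9% in replicate 2. Joining pieces lowers the share of split regions by construction, and joining combined regions raises it, since a joined region can hold several calls.

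Regions split in replicate 1 were wider than those it drew as 1 region, with nearly the same combined scores. Split broad regions had a median width of 6620.5 bases and a median combined score of 2.36, and those drawn as 1 region had 5827 bases and 2.39. The highest-scoring piece had a median score of 1.35 in split regions and 1.25 in those drawn as 1. The first is the highest of 2 or more scores and the second a single score, so they are not like measures. By quartile of combined score, from low to high, 37.2%, 43.0%, 40.9% and 31.2% of broad regions were split in replicate 1. The pieces of 1 region were uneven, with a median difference of 0.62 between the highest and lowest piece score. Where there were 2 pieces in replicate 1, the wider one had the higher score in 104 of 127 regions (81.9%). Among the 15 regions with 3 or more pieces, the highest score lay in an inner piece in 2 and at an end in the others.

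Most of the bases that a replicate left out lay at the ends of broad regions and not in the breaks. Replicate 1 covered 88.7% of the bases of broad regions and 79.0% of those of narrower regions. Replicate 2 covered 94.6% and 89.1% in the same order. Without replicate 2, when the list of replicate 1 set the broad regions, replicate 2 covered 32.2% of their bases and split 1.55% of them. It met only 55.4% of these regions, and a region not met cannot be split. Of the 281.931 kb of broad regions that replicate 1 left out, 73.8% lay at the ends, 24.2% in inner gaps and 1.93% in the region it did not meet. Of the 135.706 kb that replicate 2 left out, 87.1% lay at the ends and 4.66% in inner gaps.

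The outlines of the combined regions were close to those of replicate 2. At the 358 broad regions that replicate 2 drew as 1, the starts differed by a median of 26.5 bases and the ends by 28 bases, and both ends lay within 100 bases in 248 (69.3%). At the 230 that replicate 1 drew as 1, the starts differed by a median of 187.5 bases and the ends by 199.5 bases, and both ends lay within 100 bases in 21 (9.13%). The replicate's region was shorter than the combined one in 167 of these 230 for replicate 1 (72.6%) and in 223 of the 358 for replicate 2 (62.3%). Spearman's rho across broad regions between the combined score and the highest piece score was 0.97 for replicate 2 and 0.64 for replicate 1. The sources used here do not say how the replicates were combined.

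Counted by each replicate's own widths, fewer than 50% of the broad regions were broad in both. Replicate 1 had a region of at least 5000 bases at 206 of the 373 (55.2%, against 15.8% of all combined regions in the intervals), and replicate 2 at 320 (85.8%, against 10.6%). Such a region was present in both replicates at 168 (45.0%, 40.1% to 50.1%, against 5.35% of all). Replicate 2 alone had such a region at 152 (40.8%), replicate 1 alone at 38 (10.2%) and neither at 15 (4.02%). In the opposite direction, 322 of the 331 regions of at least 5000 bases of replicate 2 met a broad region (97.3%), and the other 9 met narrower combined regions. Of the 581 such regions of replicate 1, 206 met a broad region (35.5%), 190 met narrower combined regions only (32.7%) and 185 met no combined region (31.8%). Scores of the 206 had a median of 1.33 and widths a median of 6093 bases. In the 375 others the medians were 0.77 for score and 6746 bases for width.

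The scores of the replicates ranked broad regions in a loosely similar order on different levels. The highest piece score at a broad region had a median of 1.29 in replicate 1, with 5% of values below 0.72 and 5% above 2.10. In replicate 2 the median was 2.85, with 5% below 1.46 and 5% above 3.52. The score of replicate 1 was the lower one in 359 of 370 broad regions (97.0%), by a median difference, replicate 1 minus replicate 2, of -1.52. In narrower regions met by both it was also the lower one, in 1852 of 2063 (89.8%), with a median difference of -1.34. The lower level of replicate 1 was thus not particular to broad regions. Spearman's rho between the replicates was 0.56 over the 370 broad regions and 0.71 over 2063 narrower ones, across regions, and the narrower regions span a wider range of scores. Within its own list, the highest piece reached the top quartile of scores at 333 of 372 broad regions in replicate 1 (89.5%) and at 165 of 371 in replicate 2 (44.5%). The same shares in narrower regions were 1065 of 2385 (44.7%) and 532 of 2396 (22.2%). Taking the highest piece favours regions in several pieces, which were more frequent among broad regions, and this was not separated. The list of replicate 1 is the longer one, with many regions of low score, and its top quartile starts at 0.88, against 2.91 in replicate 2.

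**Figure D3:**
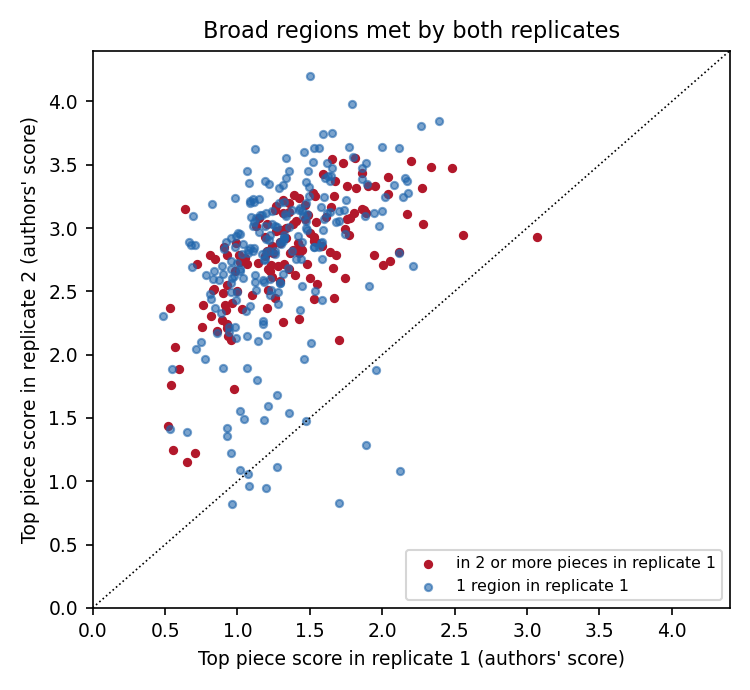
Highest piece score of each broad region in replicate 1 (x axis) and replicate 2 (y axis), for the 370 regions met by both, coloured by splitting in replicate 1. Of these, 359 lie above the dotted line of equal scores, and split and unsplit regions overlap over most of the range.

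The widest broad regions show these patterns one by one. The widest lay on 2L from 4964784 to 4983361 (18578 bases, score 2.64). Replicate 2 drew it as 1 region of 18586 bases with a score of 3.10. Replicate 1 drew 3 pieces, of which the highest scored 1.49, with a largest gap of 1399 bases. The next, on 2L from 11986343 to 12003142 (16800 bases, score 2.48), was 1 region in replicate 2 (2.98) and 3 pieces in replicate 1 (highest 1.29). The region on 2L from 19574713 to 19588851 (14139 bases, score 2.29) had the most pieces in replicate 1, with 4, and was 1 region in replicate 2.

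In the other widest regions the continuity varied. On 2L from 8299707 to 8312820 (13114 bases) replicate 1 had 2 pieces and replicate 2 had 1. Both replicates broke the region on 2L from 2744184 to 2756767 (12584 bases, score 1.78) into 2 pieces. Both drew a single region on 3L from 16572829 to 16585158 (12330 bases), scored 1.49 by replicate 1 and 3.45 by replicate 2. The same held on 3R from 23740598 to 23752121 (11524 bases), with 1.86 in replicate 1 and 3.39 in replicate 2. The region on 3R from 27037685 to 27049593 (11909 bases) had 2 pieces in replicate 1 and 1 in replicate 2, and that on 2L from 10421383 to 10432946 (11564 bases) had 3 and 1 in the same order.

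The opposite pattern was seen on 3R from 25039370 to 25050895 (11526 bases, score 2.78). There replicate 1 drew 1 region (score 1.79) and replicate 2 drew 2 pieces with a gap of 1111 bases, the higher of which scored 3.98. The largest number of pieces in replicate 2 was 3, on 3L from 16031282 to 16041122 (9841 bases, score 1.45), which replicate 1 covered whole with a region of 10046 bases and a score of 1.28. On 2L from 13826275 to 13837200 (10926 bases) the 2 pieces of replicate 2 abutted with a gap of 0 bases, so that the break there is a boundary of the calls with no bases left out. On 3L from 19898876 to 19909956 (11081 bases) both replicates had 2 pieces, 431 bases apart in replicate 1 and 46 in replicate 2. On 3R from 14852103 to 14861549 (9447 bases) replicate 1 had 3 pieces and replicate 2 had 1.

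**Figure D4:**
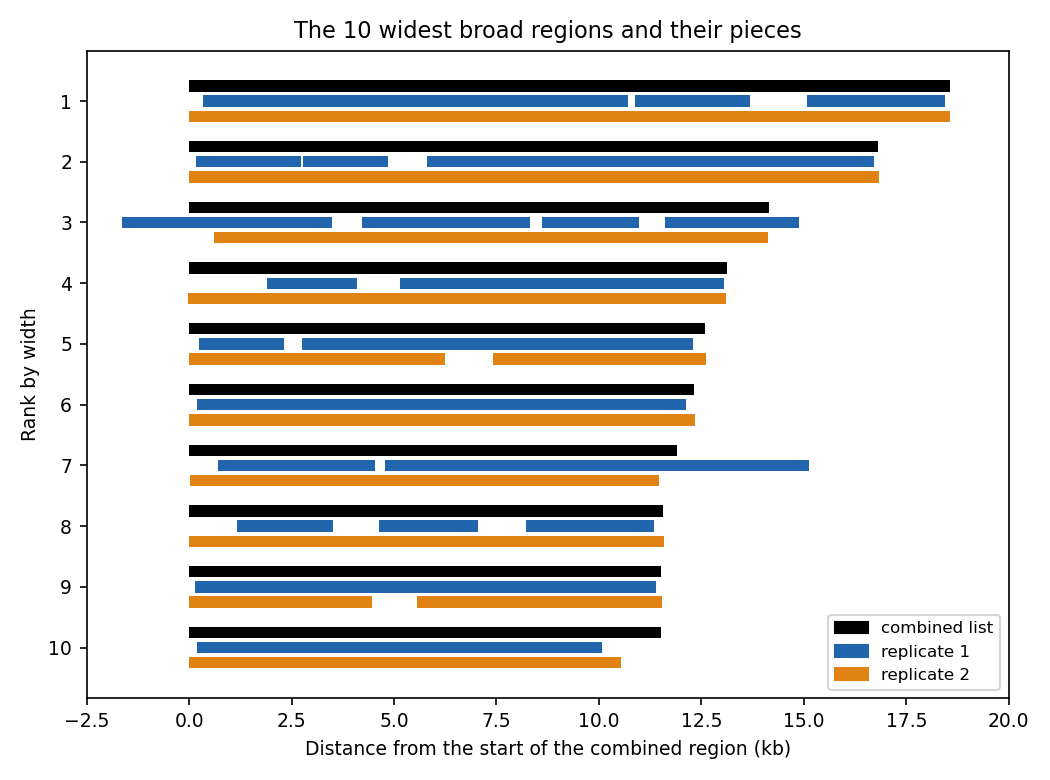
The 10 widest broad regions, ranked by width (y axis), with the extent of the combined region and of the overlapping regions of each replicate, as distance from the start of the combined region (x axis, kb). Replicate 2 drew 8 of the 10 as 1 region, and replicate 1 drew 3 so.

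The highest scores among broad regions lay in regions of 5238 to 7029 bases that both replicates drew as 1 region. The highest, 3.51, was on 3R from 23404935 to 23410330, with 1.50 in replicate 1 and 4.20 in replicate 2. It was followed by 3R from 25868125 to 25874456 (3.37, with 2.39 in replicate 1 and 3.85 in replicate 2) and 3R from 19179854 to 19186550 (3.35, with 2.27 and 3.80 in the same order). Next came 2L from 6916366 to 6923394 (3.20, with 2.12 and 3.63) and 2L from 5323617 to 5328854 (3.20, with 1.59 and 3.74). The 5 lowest scores lay between 0.44 and 0.80 and include the 3 regions missed by a replicate. The other 2 were on 2L from 12617630 to 12624259 (0.60) and on 3R from 23015536 to 23020640 (0.80). Replicate 1 covered at least 94.1% of both with regions of 9383 and 10048 bases, and replicate 2 covered 36.5% and 69.3%.

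Broad regions were spread over all 3 arms in similar shares. On 2L, 101 of the regions in the interval were broad and 802 narrower (11.2% broad, 9.29% to 13.4%). On 3L, 119 were broad and 904 narrower (11.6%, 9.81% to 13.7%), and on 3R 153 were broad and 1060 narrower (12.6%, 10.9% to 14.6%). The intervals of these shares overlap. Density was 4.81 broad regions per Mb on 2L, 5.28 on 3L and 5.91 on 3R, beside 38.2, 40.1 and 40.9 narrower regions per Mb. Median widths were alike, at 6131, 6128 and 6047 bases in that order, while 11 of the 23 regions of at least 10 kb lay on 2L and 6 on each other arm. Replicate 1 split 39.6% of the broad regions on 2L, 37.8% on 3L and 37.3% on 3R.

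Within the arms the lowest share was in the part of 2L nearest the centromere. With each interval divided into 3 equal parts, that part of 2L held 16 broad and 230 narrower regions (6.50% broad). The 8 other parts had shares of 10.6% to 13.9%. In 68 full bins of 1 Mb there was a median of 5 broad regions, with a range of 0 to 13, beside a median of 39 narrower regions and a range of 13 to 65. The bin with the most was on 2L between 10000001 and 11000000, with 13 broad and 50 narrower regions. The most on 3R was 12, in the bins that start at 14000001 and at 25000001, and the most on 3L was 9, in the bin that starts at 16000001. Only the bin of 2L between 14000001 and 15000000 held no broad region, and it held 20 narrower ones. The ratio of variance to mean over bins was 1.58 for broad and 2.96 for narrower regions. This ratio also depends on the mean count per bin, which was much higher for narrower regions. The 2 ratios therefore do not rank the groups by clustering. Spearman's rho between the 2 counts was 0.48 across bins, which share the same calls.

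A broad region came next after broad and after narrower regions in nearly equal shares. Of the 373 broad regions, 43 had a broad region next in line (11.5%, 8.67% to 15.2%), and of 2763 narrower regions 329 did (11.9%, 10.8% to 13.2%), against 11.9% of all regions in the intervals. They fell into 330 runs, of which 290 were single regions, 37 were pairs and 3 were runs of 3, with none longer. By distance, 129 of 373 broad regions had another broad region within 20 kb (34.6%, 29.9% to 39.6%), as had 809 of 2766 narrower regions (29.2%, 27.6% to 31.0%), against 29.9% of all. Within 50 kb the shares were 55.8% and 49.8%, against 50.5% of all, and within 100 kb 75.3% and 70.0%, in the same order. The median distance to the nearest other broad region was 39825 bases from broad and 50279.5 bases from narrower regions.

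**Figure D5:**
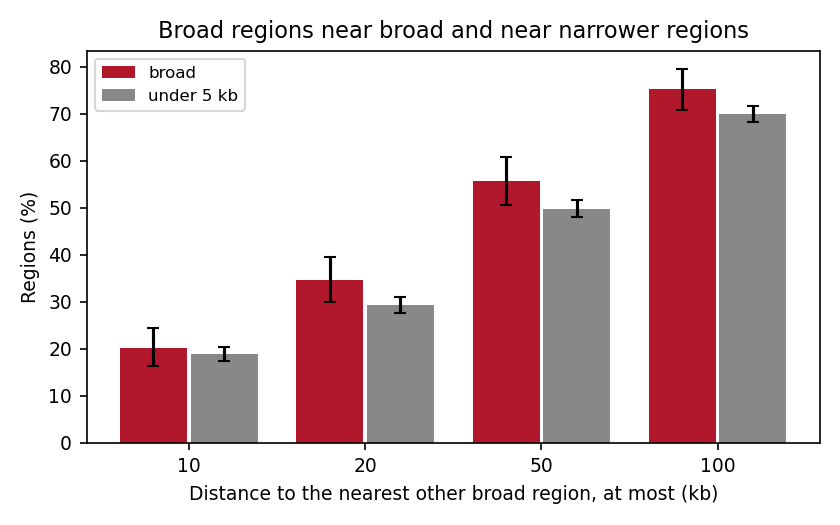
Share of regions (y axis, %) with another broad region within 10, 20, 50 or 100 kb (x axis), for broad regions and regions under 5 kb, with Wilson 95% intervals as bars. The shares are 20.1% and 18.9% within 10 kb, and 75.3% and 70.0% within 100 kb, for broad regions and regions under 5 kb in that order.

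The median gap to the nearest neighbour of any width was smaller for broad regions, while shares by distance had overlapping intervals. The gap to the nearest region had a median of 2262 bases in broad and 3159 bases in narrower regions. It was under 1000 bases in 104 of 373 broad regions (27.9%, 23.6% to 32.6%) and in 659 of 2766 narrower ones (23.8%, 22.3% to 25.4%), against 24.3% of all. Both neighbours were more than 20 kb away from 26 of 372 broad regions (6.99%, 4.81% to 10.0%) and from 265 of 2761 narrower regions (9.60%, 8.55% to 10.8%). For this last comparison the share of all regions was not computed.

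The closest broad neighbours lay on 3R, 76 bases apart, from 7038619 to 7043919 (score 2.99) and from 7043996 to 7050839 (2.90). Both replicates drew each of them as 1 region, with scores of 2.18 and 2.14 in replicate 1 and 3.28 and 3.24 in replicate 2. The next pairs were also on 3R, 362 bases apart from 19746151 to 19758511 and 584 bases apart from 20872475 to 20883932. The 3 runs of 3, named after their values were seen, began on 2L at 10855012, on 3L at 5743213 and on 3R at 8820449. That on 3L spanned regions of 6304, 9513 and 5791 bases with gaps of 6957 and 2952 bases, whereas that on 2L included a gap of 106129 bases with no region in it. Being next in line therefore does not mean being close.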

How the data were processed

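The authors deposited 3 lists of regions, 1 for each ChIP sample and 1 for the replicate set, with coordinates on FlyBase release 5 per the file headers. Rows give a region's start and end and 1 score; the deposited score has no stated scale and is positive in every row typed as enrichment. Bowtie 0.12.7 is named in the submitters' processing notes. Region caller, thresholds and method of combining replicates were not given in the sources used here. Per the labels, each Input sample served as the input for 1 ChIP list, and no read counts per library are known.

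Widths, overlaps of at least 1 base, pieces, gaps and neighbours were computed from the lists with Python 3.11.15, NumPy 2.4.6, pandas 2.3.3 and SciPy 1.17.1, and plotted with Matplotlib 3.10.9. Counting was tested on 2000 simulated regions with known pieces and coverage, all recovered. The members, tests and alternatives were chosen with earlier results of these data known. Named regions follow fixed rules: the 10 widest, the 5 highest and 5 lowest scores, the 5 on each side of the minimum, the 3 closest pairs, the 5 in the most pieces in each replicate, those missed by a replicate and the fullest bins. No gene names or sequences are given, since no genome or annotation of release 5 was used here.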

Additional observations from a re-analysis of the deposited data

Results flagged for a closer look

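In the intervals of the 3 arms the combined list also has 8 rows typed as depletion. Such rows take no part in the comparisons, and their number is given as a description. None of the 8 met a broad region, and the nearest broad region was 11061 to 304534 bases away. Their scores lie between -0.16 and -0.01, next to 0.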

How the results depend on the processing

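The 8 results gave 57 values under their alternatives. Of these, 33 stayed within 1.5 times the count or within the spread set for them, and 24 moved. For the score difference and the covered percent this spread was a standard deviation over only 2 replicates, 0.43 and 4.13 in that order. Staying within it is therefore a loose criterion. Counts and percentages cannot be negative, so only the score difference could change sign, and it stayed positive. With a minimum of 4000 bases there were 685 broad regions, 24.4% split in replicate 1, 2.04% split in replicate 2 and 23.9% with a broad region next. With 6000 bases there were 199, all met by both replicates (100%), 51.3% split in replicate 1 and 6.03% with a broad region next. The share of broad regions in the list was then 21.8% and 6.34%, and moved with the minimum. Merging combined regions under 1000 bases apart gave 61.6% split in replicate 1, 47.9% split in replicate 2, 82.8% of bases covered by replicate 1 and 22.6% with a broad region next, where 20.2% of merged regions were broad. A merged region can hold several calls, so its splits are raised by construction. Merging the replicates' regions in the same way left 3.75% split in replicate 1 and 0.54% in replicate 2, by construction. With both replicates at 4959 regions, 96.8% of broad regions were met by both, 23.1% were split in replicate 1 and 82.8% of bases were covered by replicate 1. Leaving out a replicate, so that the other's list set the broad regions, gave 331 to 581 regions, score differences of 0.32 to 0.93, 55.4% to 100% met by both and 11.8% to 16.5% with a broad region next. Broad regions of replicate 2 were split in 41.4% in replicate 1, which covered 88.2% of their bases. Broad regions of replicate 1 were split in 1.55% in replicate 2, which covered 32.2% of their bases. That 1.55% counts all 581, of which replicate 2 met 55.4%, and a region not met cannot be split. The 41.4% and the 1.55% are therefore not like measures. A list set against itself gives no split or coverage. The cause of these moves was not tested. No paired analysis was possible because no result comes from a test between groups. Depth is unknown, so no value could be weighted by it.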

Other observations

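The order of broad regions along the arms looked different in the list of replicate 1. There 581 of 5518 regions in the intervals were at least 5000 bases wide (10.5%), and a broad region came next after 16.5% of broad and 9.83% of narrower regions. In the list of replicate 2 the same shares were 11.8% after broad and 11.9% after narrower regions. The difference between the lists was not tested, and 375 of the 581 regions of replicate 1 met no broad region of the combined list.

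The region nearest to a broad region was of ordinary width. Its median width was 2852 bases beside broad and 2744 bases beside narrower regions, and its median score was 1.80 beside broad and 1.62 beside narrower regions. Replicate 1 joined 15 of the 373 broad regions to another combined region (4.02%) and 181 of the 2766 narrower regions (6.54%). Replicate 2 joined 0 of 373 broad regions (Wilson upper limit 1.02%) and 24 of the narrower regions (0.87%).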
